A study of Mus musculus with 8 samples.

Results

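The genes described here are the 4 class IIa histone deacetylases (Hdac4, Hdac5, Hdac7 and Hdac9), the deacetylase Hdac3 and its corepressor Ncor1, and 3 MEF2 transcription factor genes (Mef2a, Mef2c and Mef2d), 9 of the 21755 protein-coding genes of the GENCODE annotation of GRCm38 on chromosomes 1 to 19 and X. They were chosen by name, not by their values, and each was measured over a window that ran from 5 kb before to 5 kb after the gene body. The data were lists of 5-hmC peaks from hMeDIP-seq, in which sheared genomic DNA is pulled down with an antibody against 5-hydroxymethylcytosine (5-hmC) and sequenced. Pro-B cells, the early B-cell precursors, were sorted from bone marrow of C57BL/6 mice aged 4 to 6 weeks as B220+CD43+IgM- cells. The HDAC7-deficient group (2 libraries) came from Hdac7 fl/- mice with mb1-Cre, a Cre recombinase knocked into the Cd79a locus and active in the B lineage. The controls (2 libraries), labelled wild-type, were littermates that the study describes as Hdac7+/-, so both groups lack at least 1 copy of Hdac7. The lists give the positions of peaks, without heights, read counts or expression, which leaves the depth unknown, and neither the sorted cell type nor the loss of HDAC7 protein could be checked from levels. Parts of other protein-coding genes also lay in the windows of Hdac5 (G6pc3), Hdac7 (Slc48a1), Hdac3 (Diaph1, Rell2 and Fchsd1), Ncor1 (Ttc19 and Pigl) and Mef2a (Lysmd4). Nothing in the labels says whether replicates were separate mice, so the spread between them may be technical.

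Class IIa histone deacetylases have little deacetylase activity of their own. They bind MEF2 factors through an N-terminal domain and act as corepressors there, with HDAC3, held in a complex by NCoR (Ncor1), supplying the catalytic activity. Kinases such as the CaMK, PKD and SIK families phosphorylate them, 14-3-3 proteins then hold them in the cytoplasm, and MEF2 targets are released. In B-cell precursors HDAC7 works with MEF2C to silence genes of other lineages. 5-hmC is made from 5-methylcytosine by TET enzymes, mostly at CpG dinucleotides, and is commonly found in the bodies and at the enhancers of genes in use and is scarce at unmethylated CpG islands.

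The longest stretches under peaks in all 4 libraries lay mostly in introns, and their sequences ranged from stretches with several CpG to CpG-poor repeats. The stretches of DNA under a peak in every library numbered 217 over the 9 windows and covered 19436 bp, or 1.07% of the window bases. Of these stretches, 127 held no CpG. Soft-masked bases, which mark repeats in the RefSeq genome sequence, made up 35.0% of the bases in such stretches against 23.8% of the windows. This held in Hdac4, Hdac9, Mef2a and Mef2c, while in the other 5 genes the stretches were less soft-masked than the window, as in Hdac7 (12.8% against 16.6%). In each gene the longest such stretch was 177 to 414 bp. It was intronic in 7 genes, in Mef2d it lay upstream (at -2720 bp from the start), and in Hdac5 it lay over a noncoding exon. The sequences of 5 of them are shown because they span the range from CpG-bearing to repeat sequence, each on the strand of its gene with every CpG in capitals. They are those of Hdac7 (chr15:97833550-97833742, minus strand, 4 CpG, intron), Mef2a (chr7:67286640-67286850, minus strand, 5 CpG, intron), Mef2d (chr3:88139652-88139846, plus strand, 4 CpG, upstream of the gene), Ncor1 (chr11:62420250-62420456, minus strand, 0 CpG, intron) and the central 300 bases of that of Hdac9 (chr12:34389466-34389765, minus strand, 1 CpG, intron), all on GRCm38 as read from the RefSeq genome.
Hdac7: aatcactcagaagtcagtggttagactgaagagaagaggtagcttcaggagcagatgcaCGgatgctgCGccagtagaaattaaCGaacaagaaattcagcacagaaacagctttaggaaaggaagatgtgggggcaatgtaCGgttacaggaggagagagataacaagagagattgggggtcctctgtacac
Mef2a: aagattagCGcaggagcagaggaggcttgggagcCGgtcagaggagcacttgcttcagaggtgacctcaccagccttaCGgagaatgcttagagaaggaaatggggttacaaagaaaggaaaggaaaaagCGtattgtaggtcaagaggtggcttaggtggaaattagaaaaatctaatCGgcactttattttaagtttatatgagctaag
Mef2d: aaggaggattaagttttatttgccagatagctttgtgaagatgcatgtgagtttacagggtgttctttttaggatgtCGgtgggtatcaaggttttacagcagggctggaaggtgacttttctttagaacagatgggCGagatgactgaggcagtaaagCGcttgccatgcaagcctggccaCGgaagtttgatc
Ncor1: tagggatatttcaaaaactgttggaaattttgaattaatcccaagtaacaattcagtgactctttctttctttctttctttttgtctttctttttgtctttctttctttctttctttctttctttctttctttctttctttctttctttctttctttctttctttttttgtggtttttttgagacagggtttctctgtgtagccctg
Hdac9: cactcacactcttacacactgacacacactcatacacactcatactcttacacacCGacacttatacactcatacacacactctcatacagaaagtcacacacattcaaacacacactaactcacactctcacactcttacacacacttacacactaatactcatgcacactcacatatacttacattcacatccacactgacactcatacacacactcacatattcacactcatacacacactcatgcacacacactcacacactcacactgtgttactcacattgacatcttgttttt
The stretches of Hdac7, Mef2a and Mef2d held 2.05 to 2.37 CpG per 100 bases, and 0 to 22.7% of their bases were soft-masked. The Ncor1 and Hdac9 stretches held 0 and 0.24 CpG per 100 bases, and 73.9% and 75.6% of their bases were soft-masked. The Ncor1 sequence runs through repeated ttct units and that of Hdac9 through repeated ca units.

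Hdac7, the targeted gene, lies at chr15:97792664-97844502 on the minus strand. In its window, replicates 1 and 2 had 66 and 53 peaks in wild-type, against 63 and 52 without HDAC7. The genotypes overlapped, and replicates with the same number were closer to each other than to the other library of their genotype. Of the window bases, 10594 and 9520 lay under peaks in wild-type against 7487 and 9964 without HDAC7. As a share of the window this was 16.3% ± 1.23 in wild-type and 14.1% ± 2.83 in HDAC7-deficient libraries (mean ± SD, n = 2 each). The log2 ratio of HDAC7-deficient to wild-type bases was -0.20 ± 0.31 (SD propagated from the replicates), and p = 0.667 in a two-sided exact permutation test that enumerates all 6 assignments of the 4 libraries. This test cannot give a p below 0.333 with 2 libraries a genotype, so it could call no difference in a single value. HDAC7-deficient replicate 2 covered chromosome 15 at 1.19 times its own level on chromosomes 1 to 13, where the other libraries stood at 0.994 to 1.02 times. Relative to the covered share of chromosome 15 in the same library, the Hdac7 window stood at 1.80 and 1.40 in wild-type against 1.31 and 1.32 without HDAC7, so that on this scale both HDAC7-deficient values lay below both wild-type values (log2 ratio -0.29 ± 0.26, exact permutation p = 0.333), as they did in 17% of all protein-coding genes.

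While the numbers of peaks overlapped between genotypes, a stretch past the middle of Hdac7 held peaks in the wild-type libraries only. It was picked as the longest stretch of the gene without a peak in either HDAC7-deficient library, so it does not by itself show a genotype difference. Both HDAC7-deficient libraries lacked any peak over chr15:97806361-97811958, a stretch of 5598 bp that begins 32544 bp after the first annotated start of the gene, while both wild-type libraries had peaks there. Wild-type replicate 1 had 6 peaks that reached into it, of which 5 lay wholly inside (783 bp), and wild-type replicate 2 had 3, of which 2 lay wholly inside (89 bp). The 5 peaks inside in wild-type replicate 1 were 43 to 301 bp wide, and 4 of them were intronic. The longest peak-free stretch of the gene in a single library was 2845 and 3945 bp in wild-type against 5598 and 5921 bp without HDAC7. Over both wild-type libraries together it was 2614 bp. The 3945 bp of wild-type replicate 2 lay inside the same 5598 bp, between its peaks of 21 and 68 bp. This control library was thus also largely free of peaks there. The stretch lies in bins 7 and 8 of the gene body (equal parts numbered from the 5' end), and in both bins the genotypes overlapped. Peaks covered 18.69% and 5.093% of bin 7 in wild-type replicates 1 and 2, against 8.603% and 8.005% without HDAC7. In bin 8 the values were 4.996% and 12.98% against 5.343% and 1.601%. The stretch of 5598 bp holds 9 to 11 whole exons of each of the 8 basic protein-coding transcripts, starting with exon 2 in 7 of them. It cuts through no exon. These exons carry 1261 to 1567 bp of coding sequence, out of 2553 to 2859 bp a transcript. The stretch held 120 CpG, or 21.4 per kb, against 18.9 per kb over the whole gene.

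**Figure D1:**
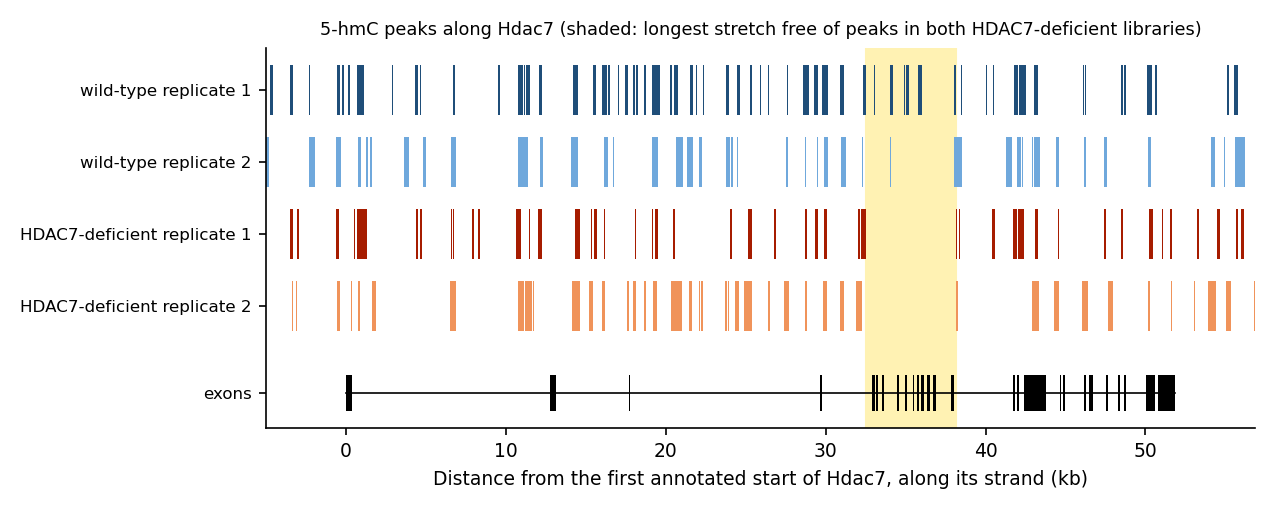
5-hmC peaks (coloured bars) along Hdac7 in each of the 4 libraries, with distance in kb from the first annotated start along the gene's strand on the horizontal axis and merged exons in black below. The shaded 5598 bp hold no peak in the HDAC7-deficient libraries, 6 peaks that reach into them in wild-type replicate 1 and 3 in wild-type replicate 2, and a dense group of exons.

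A floxed exon that has been removed gives no fragments and hence no peak, but the sources used here do not give the exons that the Hdac7 alleles lack, so whether this stretch matches the deleted DNA was not tested. Peak-free stretches of this length were common, since 36.7% of the 2796 protein-coding genes of like length (a window within 25% of that of Hdac7) had a stretch at least as long in both HDAC7-deficient libraries and 33.6% had one in both wild-type libraries. A longest stretch with at least as many wild-type peaks in it as in Hdac7, summed over both wild-type libraries, was found in 51 of these genes, or 1.82%. The genes of like length were not matched in peak density, however. Hdac7 was at percentile 99.3 among them in peaks per 10 kb, so this share does not show that its stretch was unusual for so peak-dense a gene. Mef2d, not of like length, had 5 and 7 wild-type peaks in a shorter stretch of 4072 bp without a peak in either HDAC7-deficient library. The reverse was also found. In Ncor1 a stretch of 9982 bp without a wild-type peak held 6 and 2 peaks in HDAC7-deficient replicates 1 and 2. Both comparisons with like-length genes were chosen after the Hdac7 stretch had been seen.

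Elsewhere Hdac7 held many peaks that were shared between genotypes. Its window held 102 regions, that is, peaks of the 4 lists merged where they shared at least 1 bp, and 17 of them (16.7%) had a peak in every library, against 11.9% of regions over all protein-coding gene windows. A region was gained if peaks were found in both libraries without HDAC7 but in neither control, and lost in the reverse case. Hdac7 had 4 gained regions, of 46 to 237 bp, and 1 lost region of 247 bp (chr15:97810263-97810509), which lies in intronic DNA inside the peak-free stretch. With the gene body divided into 10 equal bins from the 5' end, bin 3 was the fullest on average over the libraries, with 21.9% to 30.9% of its bases under peaks in a library, and it was also CpG-rich at 35.5 CpG per kb. Its peaks did not lie on its most CpG-rich DNA, however. The promoters in that bin, chr15:97831718-97832017 (35 CpG) and chr15:97831446-97831745 (31 CpG), had no peak in any library. Bin 8 was on average the emptiest, with a mean of 6.23%.

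Hdac5, the class IIa gene nearest to Hdac7 in its peak cover, is at chr11:102194432-102230166 on the minus strand. Its window held 60 and 36 peaks in wild-type against 47 and 41 without HDAC7. They covered 20.3% and 14.9% of the window in wild-type against 13.1% and 17.6% without HDAC7. The wild-type replicates differed from each other by more than the genotype means did (17.6% ± 3.82 and 15.3% ± 3.16, SD, n = 2 each; exact permutation p = 0.667). Bin 5 of the gene had the highest mean cover of any of the 10 bins in the 9 genes, at 49.8% and 30.3% in wild-type against 26.9% and 38.3% without HDAC7, with only 10.3 CpG per kb. Bins scale with gene length, so those of a short gene such as Hdac5 hold fewer peaks each than those of the longer genes. Hdac5 and Hdac7 had 10.1 and 9.46 peaks per 10 kb on average over the 4 libraries, the highest densities of the 9 genes.

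Hdac4 and Hdac9 are much longer genes with sparser peaks. Hdac4 (chr1:91928779-92195699, minus strand) had 141 and 161 peaks in wild-type against 130 and 140 without HDAC7. Both HDAC7-deficient counts were below both wild-type counts, by a log2 ratio of -0.16 ± 0.15 (exact permutation p = 0.333), with 1 peak between the nearest libraries of the 2 genotypes. With a flank of 2 kb or with peaks at least 200 bp wide the genotypes overlapped for Hdac4. Its bases under peaks overlapped between genotypes, at 20741 and 25858 bp in wild-type against 19124 and 25222 bp without HDAC7. Exons of Hdac4 had little cover, 0.784% to 7.75% of their bases in a library, against 7.45% to 9.51% of its introns. Hdac9 (chr12:34047580-34917095, minus strand), at 869516 bp the longest of the 9, had 389 and 449 peaks in wild-type against 433 and 403 without HDAC7. Its mean numbers of 419 ± 42.4 and 418 ± 21.2 (SD, n = 2 each) differed by 1 peak. Hdac9 was the most even along its length, with mean cover between 7.58% and 10.3% in all 10 bins of the gene. Its bins were also the longest of the 9 genes and averaged over more peaks.

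Hdac3, the class I deacetylase that class IIa proteins recruit, lies on chromosome 18 (37935844-37955016, minus strand). It had 20 and 21 peaks in wild-type against 23 and 24 without HDAC7, both HDAC7-deficient counts above both wild-type counts (log2 ratio 0.20 ± 0.066, exact permutation p = 0.333). Its bases under peaks were 2978 and 4205 in wild-type against 3269 and 4470 without HDAC7, which overlapped. HDAC7-deficient replicate 2 covered chromosome 18 at 1.19 times its level on chromosomes 1 to 13, and the part of this in its count was not tested beyond scaling to the chromosome, which kept the order but lowered the log2 ratio to 0.10. With the gene body alone, with flanks of 2 or 10 kb, with peaks at least 200 bp wide or with peaks within 100 bp merged, the genotypes overlapped for Hdac3. No region of its window was gained and 1 was lost.

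Ncor1 (chr11:62316426-62458541, minus strand), the scaffold of the HDAC3 complex, had 71 and 80 peaks in wild-type against 86 and 75 without HDAC7. They covered 7.13% and 9.76% of the window in wild-type against 8.84% and 10.1% without HDAC7, so the genotypes overlapped. Relative to chromosome 11 in the same library the values were 0.708 and 0.857 in wild-type against 0.887 and 0.957 without HDAC7, which no longer overlapped (log2 ratio 0.24 ± 0.21, exact permutation p = 0.333). On this scale 13.2% of all genes were separate in this direction. Ncor1 had 6 gained and 2 lost regions among 159. Its longest all-library stretch, the ttct-rich sequence shown above, lay under peaks of 250 to 356 bp in the 4 libraries.

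Mef2d (chr3:88142372-88172086, plus strand) was the only one of the 9 genes whose bases under peaks did not overlap between genotypes. Peaks covered 5985 and 5468 bp in wild-type against 4892 and 3430 bp without HDAC7, or 14.4% ± 0.920 and 10.5% ± 2.60 of the window (SD, n = 2 each; log2 ratio -0.46 ± 0.37, exact permutation p = 0.333). The numbers of peaks were 37 and 33 in wild-type against 36 and 20 without HDAC7, and overlapped. The difference was largest in the middle of the gene. In bin 5 of its gene body, peaks covered 22.1% and 30.2% in wild-type against 5.52% and 0% in HDAC7-deficient libraries. In bin 4 the values were 24.1% and 25.1% against 16.8% and 0%. Each 0% was of HDAC7-deficient replicate 2, the library with 20 peaks in the window. These bins were picked after their values were seen, and the share of bins separate in this way over all genes was not computed. The 4072-bp stretch without HDAC7-deficient peaks (chr3:88152591-88156662) holds 584 and 869 bp of peaks in wild-type replicates 1 and 2. Relative to chromosome 3 the Mef2d window stood at 1.63 and 1.28 in wild-type against 1.35 and 0.844 without HDAC7, which overlapped. The single gained region of Mef2d, 297 bp at chr3:88141747-88142043, lay just upstream of the start and held 13 CpG.

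Mef2c (chr13:83504034-83667080, plus strand), the MEF2 factor that HDAC7 partners in B-cell precursors, had 89 and 82 peaks in wild-type against 80 and 103 without HDAC7. Both genotypes had a mean cover near 8.4% of the window, with 8.36% ± 0.260 in wild-type and 8.45% ± 1.58 (SD, n = 2 each) in HDAC7-deficient libraries. The exact permutation p was 1 for both number and bases. Mef2a (chr7:67231163-67372858, minus strand) had 83 and 68 peaks in wild-type against 78 and 80 without HDAC7. Its cover was 8.60% and 9.87% in wild-type against 8.05% and 8.76% without HDAC7 and overlapped by a small margin. Relative to chromosome 7 the values were 0.903 and 0.917 in wild-type against 0.856 and 0.868 without HDAC7, which did not overlap (log2 ratio -0.08 ± 0.021, exact permutation p = 0.333), a direction found in 17% of all genes on this scale.

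**Figure D2:**
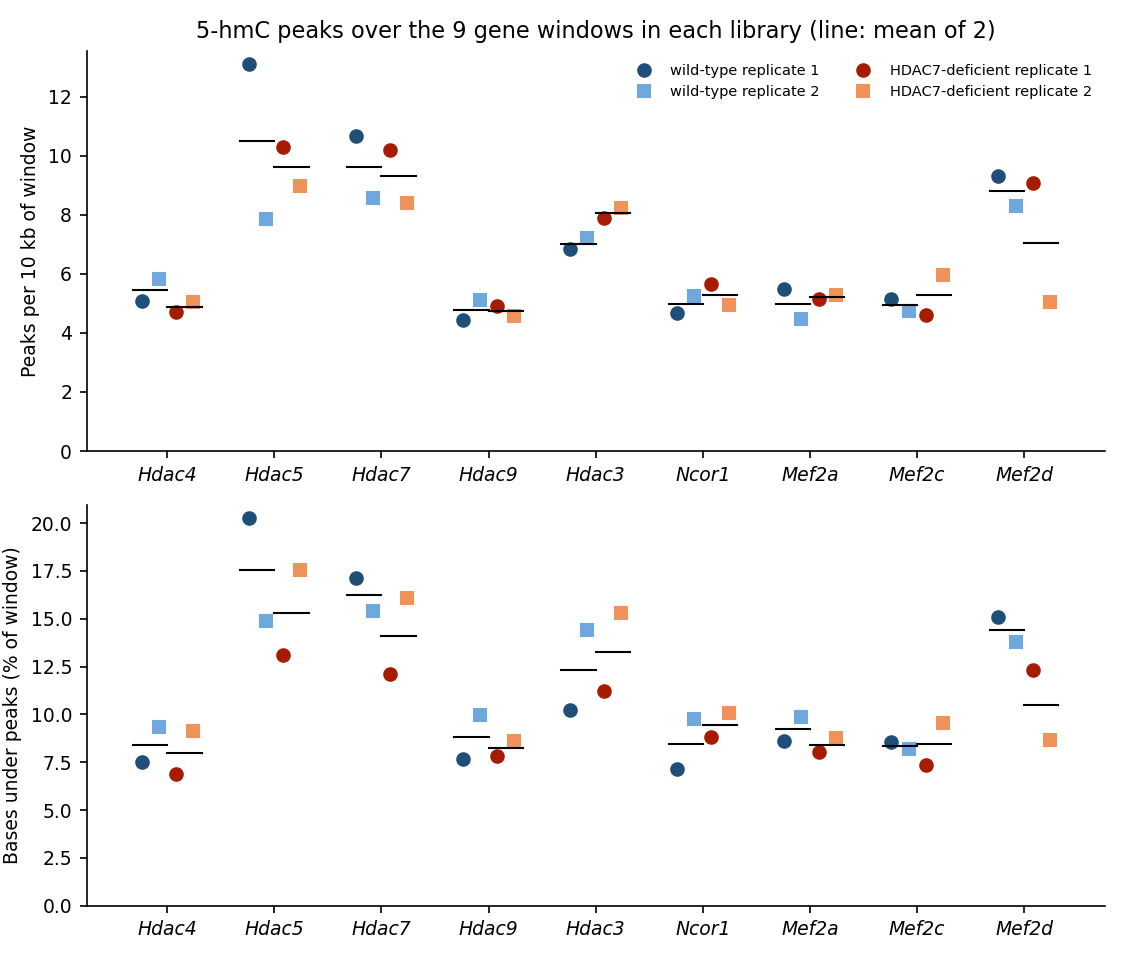
Peaks per 10 kb (top) and percent of window bases under peaks (bottom) in the window of each of the 9 genes, with 1 point per library and a line at the mean of the 2 libraries of a genotype. Hdac5, Hdac7, Hdac3 and Mef2d lie above the 5 longer genes on average, and in the lower plot the genotypes are separate only for Mef2d.

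Counted over the 9 genes, peak number separated the genotypes in 2 genes, with HDAC7-deficient libraries higher in 1 (Hdac3) and lower in 1 (Hdac4). Over all 21755 protein-coding genes, 12% were higher and 10.8% lower by this rule. For bases under peaks none of the 9 was higher and 1 (Mef2d) was lower, where 10% of all genes were higher and 17.1% lower. These counts are therefore near what is found over all genes, and nothing was called particular to the 9 genes from them. The median log2 ratio of bases over the 9 genes was -0.10, with a range from -0.46 to 0.16, beside a median of -0.04 over all genes, whose 10th to 90th percentile ran from -0.47 to 0.37.

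Set beside genes of like length, which leaves aside the effect of size, the class IIa genes fell at both ends of the range. Hdac5 and Hdac7 were at percentiles 96.8 and 96.5 of mean cover among 3647 and 2796 genes whose windows were within 25% of theirs in length, with 16.4% and 15.2% of window bases under peaks against medians of 9.92% and 9.79%. In single libraries their percentiles ran from 87.3 to 98.8 for Hdac5 and from 84.4 to 98.0 for Hdac7. Hdac4 was low, at percentile 12.7 of 542 genes. Mef2d and Hdac3 were at percentiles 79.1 and 77.6, and Ncor1, Hdac9, Mef2a and Mef2c were at 29.9, 28.4, 27.5 and 18.7. Hdac5 and Hdac7 were also CpG-rich, with 19.1 and 18.3 CpG per kb, at percentiles 96.0 and 95.9 of genes of like length. Among genes alike both in length and in CpG, a comparison chosen after these values had been seen, they were still at percentiles 93.4 and 93.9. With peaks at least 200 bp wide alone, Hdac7 was at percentile 88.3 and Mef2d at 54.9. Percentiles are descriptions over genes of the same 4 libraries and carry no test.

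**Figure D3:**
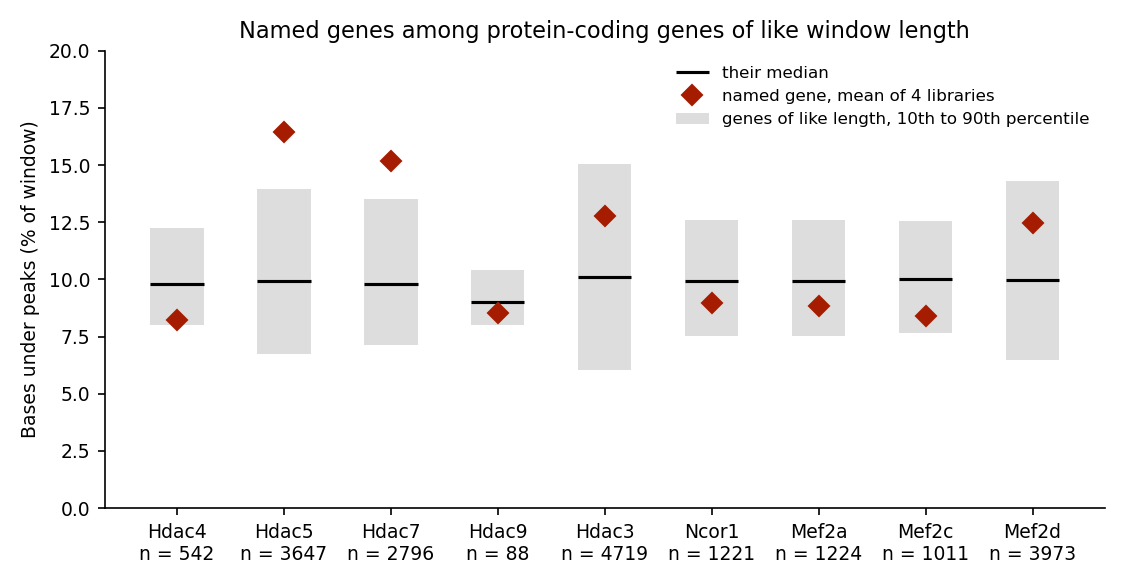
Mean percent of window bases under peaks over the 4 libraries for each gene (diamonds), beside the 10th to 90th percentile (grey bars) and median (black lines) of protein-coding genes with windows of like length, whose number is given under each name. Hdac5 at 16.4% and Hdac7 at 15.2% lie above their grey bars, and the other 7 genes lie within theirs.

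Most regions of the 9 genes were found in a single library. Of 1905 regions, 1067 (56.0%) had a peak in 1 library, 223 (11.7%) in all 4, 46 were gained and 45 were lost. Gained regions made up 2.83% and lost regions 2.49% of the 1251745 regions over all protein-coding gene windows, against 2.41% and 2.36% in the 9 genes. More regions, 78 and 72, had a peak in only the replicates numbered 1 or only those numbered 2. These were 4.09% and 3.78% of the regions, beside 4.38% and 3.29% over all protein-coding gene windows. Wild-type replicate 2 with HDAC7-deficient replicate 1 alone had 55, and wild-type replicate 1 with HDAC7-deficient replicate 2 alone had 45. By bases, the 2 wild-type libraries shared 0.218 of their joint cover (Jaccard index) in these windows and the 2 HDAC7-deficient libraries 0.235. The highest index, 0.315, was between wild-type replicate 1 and HDAC7-deficient replicate 1. Peak sets of the same genotype were thus no more alike than those of different genotypes.

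Of the gained regions 40 were intronic, 3 lay over exons and 3 in flanks, and 9 held no CpG. Of the lost regions 41 were intronic, 2 lay over exons and 2 in flanks, and 15 held no CpG. The widest gained region was 683 bp in an intron of Mef2c (chr13:83615783-83616465), with no peak in wild-type and 335 and 683 bp under peaks without HDAC7. The next were 587 bp in an intron of Ncor1 (chr11:62351217-62351803) and 572 bp each in introns of Hdac9 (chr12:34728073-34728644) and Mef2a (chr7:67367282-67367853). The widest lost region was 899 bp in an intron of Hdac9 (chr12:34455511-34456409), with 499 and 618 bp under wild-type peaks. Lost regions of 475 bp in Hdac4 (chr1:92132170-92132644) and of 408 bp in Hdac9 (chr12:34534510-34534917) followed. These 7 regions held 1 to 6 CpG each.

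Some bins varied widely between replicates and others little. Those named here were picked after their values were seen, and nothing is read from their order between genotypes. Bin 1 of Mef2d, which holds 42.1 CpG per kb, had 0.774% and 0% of its bases under peaks in wild-type against 5.28% and 5.45% without HDAC7, and was on average the emptiest bin of that gene, although bins 4 and 5 were at 0% in HDAC7-deficient replicate 2. In Mef2a bin 1 was on average the fullest, but ranged from 5.61% to 21.4% between libraries.

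**Figure D4:**
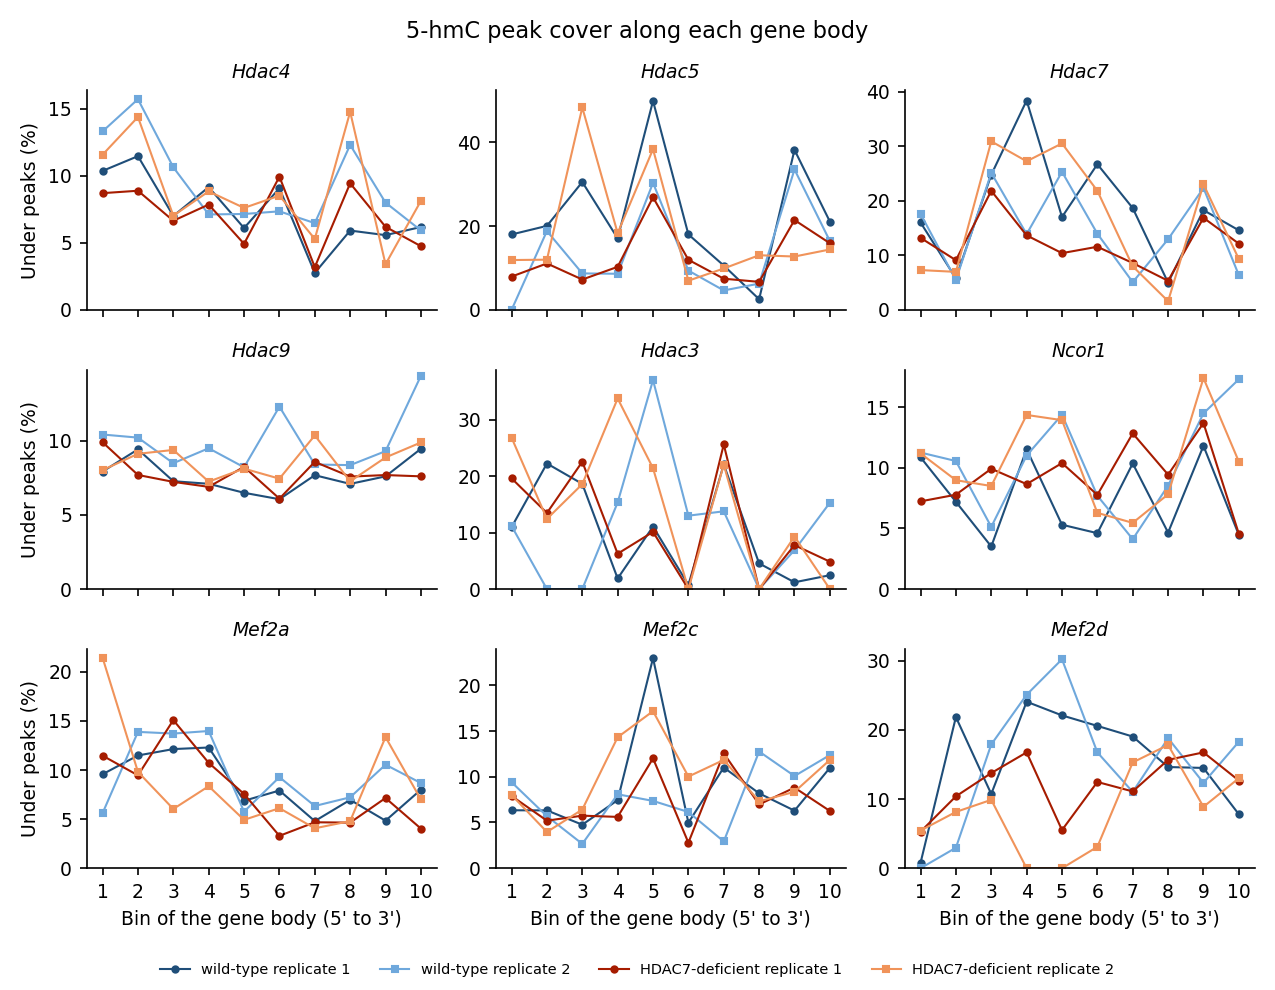
Percent of bases under peaks in each of 10 equal bins of the gene body from the 5' to the 3' end, 1 line per library, with 1 panel per gene and its own vertical scale. In the Hdac7 panel bin 3 holds 21.9% to 30.9% in every library, and in the Mef2d panel the HDAC7-deficient libraries fall to 5.52% and 0% in bin 5.

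Around the first annotated start of each gene, the 9 genes had slightly less cover than genes in general. Within 1 kb of the start, peaks covered on average 4.91% and 8.87% of bases in wild-type against 8.02% and 8.13% without HDAC7, beside 10.1%, 11.4%, 10.03% and 10.1% over all genes in the same order. Within 2 kb the order turned in 3 of the 4 libraries, with 9.64% and 11.4% in wild-type and 11.5% in each library without HDAC7, beside 10.35%, 11.3%, 10.04% and 10.5% over all genes. Within 1 kb of its first start Hdac4 had no peak in any library. Around its RefSeq start at chr1:92180341, peaks covered 43 and 57 bp within 1 kb in wild-type against 228 and 0 bp without HDAC7. On average over the 4 libraries Hdac7 had the most within 1 kb of its first start, with 756 and 515 bp in wild-type against 463 and 327 bp without HDAC7, both HDAC7-deficient values below both wild-type values. Mef2d was separate in the other direction, with 0 bp in both wild-type libraries against 197 and 128 bp without HDAC7. The share of all genes separate on this measure was not computed, so nothing is read from either gene. RefSeq gave 15 promoters for 8 of the genes, each read from 250 bp before to 50 bp after a start, and Hdac3 was without an entry. Of the 7 promoters with at least 16 CpG, 5 had no peak in any library, among them both CpG-rich starts of Hdac7 and those of Hdac5, Ncor1 and Mef2d. Those Hdac7 promoters (chr15:97831446-97831745 and chr15:97831718-97832017) overlap each other, so they are not separate places in the genome. Over all 32619 promoters, 51.0% of those as CpG-rich had no peak in any library. Of the 6 with at most 5 CpG, 2 had none, beside 54.6% of all such promoters, and of the 2 in between, 1 had none, beside 45.02%.

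Hdac7 has CpG-rich and CpG-poor promoters in a single gene, and the 250 bases upstream of 2 of its starts are shown for that reason, on the gene's strand with CpG in capitals (RefSeq, GRCm38). The pair stands for no general contrast in peaks. Over all promoters, 51.0% of those with at least 16 CpG and 54.6% of those with at most 5 CpG had no peak in any library. The CpG-rich start (chr15:97831768-97832017) held 21 CpG and no peak in any library. The downstream start (chr15:97814864-97815113) held 5 CpG, and peaks covered 141 and 66 bp in wild-type against 135 and 0 bp without HDAC7.
Hdac7 CpG-rich start: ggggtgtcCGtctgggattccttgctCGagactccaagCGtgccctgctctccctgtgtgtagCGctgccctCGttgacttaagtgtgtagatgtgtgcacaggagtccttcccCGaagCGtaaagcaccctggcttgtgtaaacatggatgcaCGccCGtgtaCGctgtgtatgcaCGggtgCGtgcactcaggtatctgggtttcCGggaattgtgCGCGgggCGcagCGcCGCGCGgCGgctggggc
Hdac7 downstream start: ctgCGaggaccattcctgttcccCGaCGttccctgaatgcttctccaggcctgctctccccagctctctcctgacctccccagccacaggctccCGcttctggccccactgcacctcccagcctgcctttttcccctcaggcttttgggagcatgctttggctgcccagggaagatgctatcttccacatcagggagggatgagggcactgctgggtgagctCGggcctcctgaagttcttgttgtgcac
Within 1 kb on each side, the downstream start had 920 and 443 bp under peaks in wild-type against 430 and 462 bp without HDAC7. The CpG-rich start had 189 and 221 bp in wild-type against 254 and 38 bp without HDAC7. The sequence without peaks thus lay within a gene body that was otherwise well covered.

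**Figure D5:**
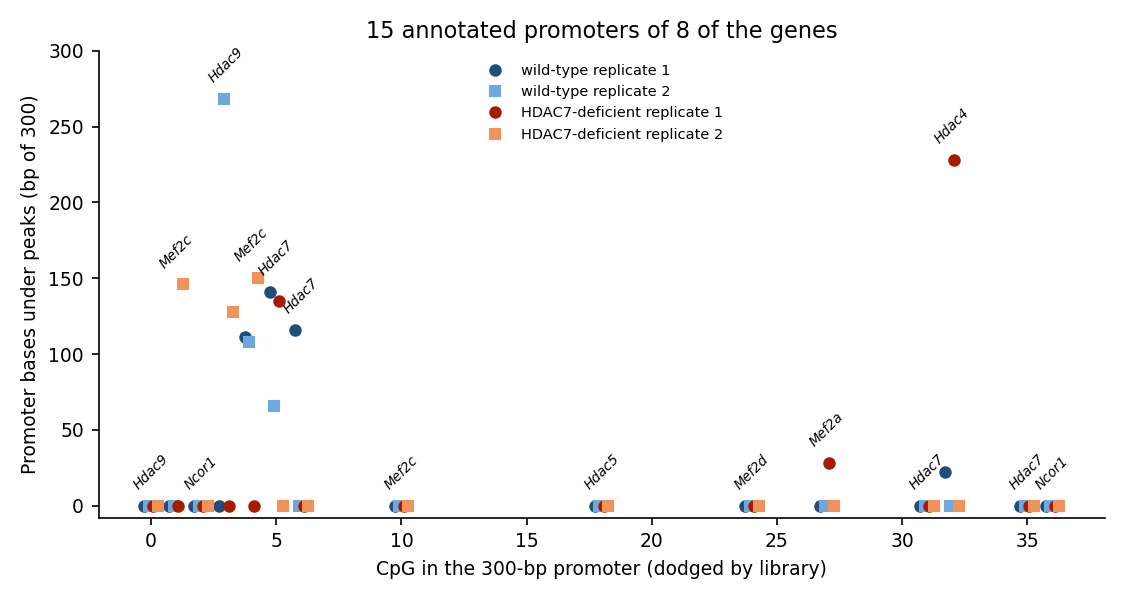
Bases under peaks in each of the 15 RefSeq promoters (300 bp each) of 8 of the genes, against the number of CpG in the promoter, with 1 point per library set slightly apart. The points of Hdac7 at 31 and 35 CpG are at 0 in all 4 libraries, and those at 5 CpG reach 141 bp.

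Taken over the 9 genes together, peak bases were slightly richer in CpG than the rest of the windows, but the genes differed. Together they held 1.02 and 0.897 CpG per 100 bases in wild-type against 0.931 and 0.928 without HDAC7, 1.24, 1.08, 1.13 and 1.12 times the density outside peaks in the same order. These pooled ratios compare genes with each other as well as peaks with their surroundings, and the parts were not separated. Hdac5 and Hdac7 had both the most CpG per kb and the highest cover of the 9 genes. Within single genes the ratio was above 1 in all 4 libraries in Hdac7 (1.11 to 1.19), Hdac3 (1.10 to 1.56) and Mef2c (1.04 to 1.54), and below 1 in all 4 in Hdac5 (0.792 to 0.967). Over all protein-coding gene windows the ratios were 1.06, 1.04, 1.06 and 0.979. Bases under peaks of all 4 libraries held 0.854 CpG per 100 bases, 1.02 times the density of the rest. The order of the genes was wide on this measure, with ratios for the all-library bases of 1.80 in Ncor1 and 1.29 in Mef2a against 0.481 in Hdac3 and 0.624 in Hdac4.

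Of 28 other genes of the pathway, 4 had more peaks in each HDAC7-deficient library than in any wild-type library and 7 had fewer, and for bases under peaks these counts were 3 and 4. Over all genes these shares were 12% and 10.8% for number and 10% and 17.1% for bases. Both measures together were higher in 2 of the 28 and lower in 4, where 4.14% of all genes were higher and 5.46% lower on both. Among deacetylases, Hdac2 (a class I enzyme) had 21 and 23 peaks in wild-type against 24 and 26 without HDAC7. Its bases under peaks were 4223 and 4746 in wild-type against 5680 and 5230 without HDAC7. None of the class IIb and IV genes (Hdac6, Hdac10 and Hdac11) was separate on either measure. The remaining MEF2 gene, Mef2b, had 19 and 20 peaks in wild-type against 26 and 31 without HDAC7, with 2987 and 3080 bp against 3148 and 4140 bp. Of the 3 other NCoR complex genes none was separate. They included the highest and lowest cover of the 28, Gps2 at 16.7% and Tbl1x at 6.86% of the window, the latter on chromosome X.

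Of the 11 kinase genes, only Sik3 was separate in the same direction on both measures, with 136 and 150 peaks in wild-type against 129 and 117 without HDAC7 and 22113 and 27313 bp against 17519 and 21226 bp. Prkd2, named after its values were seen, was separate in opposite directions, with 31 and 32 peaks in wild-type against 28 and 29 without HDAC7 but 5679 and 5061 bp against 6197 and 6185 bp. Of the 7 genes for 14-3-3 proteins, which retain phosphorylated class IIa deacetylases in the cytoplasm, 3 were lower on both measures, beside the 5.46% of all genes given above. Ywhab had 37 and 29 peaks in wild-type against 28 and 16 without HDAC7. Ywhae had 33 and 27 against 24 and 20, and Ywhag had 28 and 26 against 20 and 20. The log2 ratios of their bases under peaks were -0.29, -0.52 and -0.52. The other 4 genes of that list (Ywhah, Ywhaq, Ywhaz and Sfn) overlapped between genotypes on both measures.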

How the data were processed

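The 4 deposited hMeDIP-seq files are peak lists whose only values are positions (chromosome, start and end), with no height, score or count. The depth behind a peak is therefore unknown and counting intervals cannot be given. The authors trimmed reads (cutadapt 1.6 and Trim Galore 0.4.2 in the notes), normalised the signal to RPKM with deepTools and called peaks library by library with bdgpeakcall of MACS2 at a cutoff of 250, joining gaps of up to 10 bp and keeping lengths from 10 bp. For mapping, the methods name bwa and the submitters' processing notes name Bowtie2, and the build is mm10 (GRCm38) per the labels. Peaks that met an input peak were removed, and whether this preceded deposition is not stated. The lists held 1305200 to 1414862 peaks a library. Input libraries were not analysed here.

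Genes came from GENCODE M21 and sequences from RefSeq (GRCm38). Peaks were counted in a window when they shared at least 1 bp with it. Scripts used Python 3.11.15, NumPy 2.4.6, pandas 2.3.3 and matplotlib 3.10.9, and the counting and merging code was tested on simulated data. A single value was compared between genotypes by a two-sided exact permutation test. Genes were named by rule: all 9, and of the other pathway lists those separate between genotypes in the same direction in both measures, with the highest and lowest cover, and of the changed regions the 3 widest of each kind. The genes and lists were chosen with earlier results of these data known. Of the other pathway lists, 1 gene is not reported here.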

Additional observations from a re-analysis of the deposited data

How the results depend on the processing

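Depth behind the peaks is unknown, the wild-type controls lack 1 copy of Hdac7, and with 2 libraries a genotype the permutation test could call no difference. Counts of genes whose genotypes do not overlap rested on few peaks. For higher numbers of peaks (1 gene) they were 0 with no flank, flanks of 2 kb or 10 kb, peaks at least 200 bp or peaks within 100 bp merged, 2 relative to the own chromosome, and 2 to 3 without each library. For lower numbers (1 gene) they were 2 with no flank and 2 to 5 without each library, and with a flank of 2 kb or peaks at least 200 bp the 1 gene was Mef2d in place of Hdac4. For more bases (0 genes) they were 1 relative to the own chromosome and 0 to 3 without each library. For fewer bases (1 gene) they were 2 with a flank of 2 kb, 2 relative to the own chromosome, and 1 to 6 without each library. The log2 ratio of Hdac3 peaks turned to -0.026 with a flank of 10 kb and to 0 with peaks at least 200 bp. Of 108 alternative log2 ratios of peak numbers, 102 stayed within the replicate SD of the reported value, as did all 108 of bases. That SD comes from 2 libraries a genotype and was wide, so this does not show that the ratios were stable. Some changed sign within it. Without wild-type replicate 1 the ratio of Hdac5 peak numbers went from -0.13 to 0.29. Without HDAC7-deficient replicate 1 that of Hdac4 bases went from -0.07 to 0.11.

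With 2 pairs, the replicate numbers were not taken to pair the libraries. The correlation of deviations of same-numbered libraries was 0.085 over all genes and 0.111 without chromosomes 14 to 19 and X. More regions of the 9 genes were found in both libraries of a number alone (78 and 72) than of a genotype alone (46 and 45). Pairs that shared neither number nor genotype had 55 and 45. Regions of a number alone made up 4.09% and 3.78% in the 9 genes, beside 4.38% and 3.29% over all protein-coding gene windows. With the replicate block, 3 genes were lower in number (Hdac4, Hdac7 and Mef2d), 2 had more bases (Hdac3 and Ncor1) and 3 fewer (Hdac4, Mef2a and Mef2d). Over all genes these shares were 18.1%, 19.4% and 28.8%.

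With peaks at least 200 bp, Hdac7 moved to percentile 88.3 of like-length genes, gained regions fell to 28 and the Hdac7 peak-free stretch grew to 9166 bp. That stretch was 5598 to 5921 bp when either HDAC7-deficient library was left out. Leaving out a library or narrow peaks can only keep or lengthen it, so these lengths are no check of it. The peaks of wild-type replicate 2 wholly inside the 5598 bp were 21 and 68 bp wide, below the 200 bp limit. The CpG ratio of peaks to other bases, on average 1.14, was 1.02 for bases under all 4 libraries. Mean cover around starts, 7.48% within 1 kb, was 11.02% within 2 kb. The cause of these shifts was not tested.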
